A study of Mus musculus with 54 samples.

Results

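Neutrophil granule and calprotectin genes were followed across 7 tissues of mice that swam and of control mice. The 10 genes, of 18759 with a value, were Elane, Mpo, Ltf, Ngp, Camp, Mmp8, Mmp9, S100a8, S100a9 and Csf3r, and each was found by its symbol in the platform annotation, with 1 probe set per gene. The arrays held total RNA of C57BL6 mice, with an age of 14 weeks per the labels and a start of the protocol at 11 to 12 weeks. Swim mice had 9 days of acclimation with sessions that grew in steps of 10 min, then 3 weeks of swimming in 2 daily sessions of 90 min with 4 hours of rest between, and the label of every array, control arrays included, carries that same protocol text, so how control mice were handled is not given in the sources used here. Spleen, kidney, brain, visceral and subcutaneous white fat had 4 swim and 4 control arrays each, liver 4 swim and 3 control arrays, and muscle 3 swim and 4 control arrays, 54 in all. The labels do not say whether arrays of a group came from separate mice, so p-values measure the spread between these samples, which may be technical.

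Neutrophils carry ready-made proteins in granules that are filled in sequence while the cell matures. Primary (azurophil) granule genes are transcribed in the earliest granule-forming precursors, specific (secondary) granule genes at the next stage and gelatinase (tertiary) granule genes later, so that messenger RNA for granule proteins is mainly a mark of maturing cells. Calprotectin, the S100a8 and S100a9 pair, fills the cytoplasm and its RNA stays high in mature neutrophils. In mice the red pulp of the spleen is itself a site of blood cell formation, neutrophils included.

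Levels are log2(intensity + 16), scaled by quantiles among the arrays of a tissue, and a difference is swim minus control on that scale. The median intensity of an array lay between 45.92 and 118.65. As a guide to background, 979 olfactory receptor (Olfr) genes, which these tissues are not known to use widely, had a median of 4.95 and a 95th percentile of 5.80 in spleen. The guide is rough, because probe sets differ in their own background. The spleen label fitted its markers, since the B cell receptor subunit Cd79a stood between 10.89 and 11.17 in the 4 swim arrays, against 10.98 to 11.07 in the 4 control arrays, and the red pulp macrophage factor Spic between 9.49 and 10.09 in swim arrays, against 9.82 to 10.12 in control arrays. Alb, the albumin gene of liver, varied between 5.67 and 9.98 in swim spleens, against 4.61 to 12.11 in control spleens, without separating the groups.

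At rest, in the 27 control arrays scaled together, the granule genes were spleen genes with a pair of exceptions in fat. Spleen was higher for 10 of 10 genes than liver, where spleen was higher for 37.5% of all genes (limma, Benjamini-Hochberg adjusted p at 0.05). It was higher for 10 of 10 than kidney (35.6% of all genes), muscle (35.4%) and brain (40.2%), for 9 of 10 than subcutaneous fat (27.5%) and for 8 of 10 than visceral fat (33.7%).

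Ngp, which encodes neutrophilic granule protein of specific granules, averaged 10.59 ± 0.32 in spleen (SD, n = 4), against 5.57 ± 1.01 in subcutaneous fat, the next tissue (n = 4). Ltf, the iron-binding protein lactoferrin, averaged 8.49 ± 0.37 in spleen and 5.41 ± 0.09 in liver, next in order (n = 3). Below spleen, no neighbours in the order of tissues differed for Ltf, Mpo, Camp, Mmp8, S100a8, S100a9 or Csf3r by the limma contrasts. Csf3r in subcutaneous fat was nonetheless above visceral fat, kidney, muscle and brain, which stand further down (limma adjusted p between 0.0013 and 0.0089), and not above liver, its neighbour (adjusted p = 0.0999). Control replicates 18 to 20 of subcutaneous fat held far more B cell RNA than control replicate 17, as given below. Csf3r was 6.97, 7.92 and 6.87 in these arrays and 5.82 in control replicate 17. Ngp was 5.35, 6.81 and 5.75 in these arrays and 4.38 in control replicate 17. Mean levels outside spleen stood below the 95th percentile of Olfr genes in all 6 tissues for Mpo, Ltf, Mmp8 and S100a8.

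Csf3r, the receptor for the growth factor G-CSF, averaged 8.74 ± 0.997 in spleen and 6.89 ± 0.86 in subcutaneous fat, and S100a9 10.07 ± 0.81 in spleen and 5.96 ± 0.79 in subcutaneous fat. S100a9 was at 5.25 in control replicate 17 of subcutaneous fat and at 5.72 to 7.10 in the other control arrays of that depot. Brain held Ngp at 5.28 ± 0.15, above visceral fat, liver, kidney and muscle, where it lay between 4.448 and 4.596 (limma adjusted p of brain against each between 0.0114 and 0.0415). Brain Ngp was below the 95th percentile of Olfr genes in brain, 5.42.

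Elane and Mmp9 were the exceptions. Elane, neutrophil elastase, averaged 6.71 ± 0.26 in visceral fat against 6.87 ± 0.44 in spleen, which did not separate (limma adjusted p = 0.425), and visceral fat was above subcutaneous fat, 5.72 ± 0.30 (adjusted p = 7.45e-05). Mpo, the other primary granule gene, was at 5.31 ± 0.16 in the same visceral fat arrays, below the 95th percentile of Olfr genes there. Mmp9, gelatinase B, averaged 7.79 ± 0.44 in visceral fat, 7.57 ± 0.80 in spleen and 7.26 ± 0.41 in subcutaneous fat. These 3 levels did not separate (adjusted p between 0.118 and 0.509), and subcutaneous fat was above muscle, 5.92 ± 0.31 (adjusted p = 0.000274). Mmp9 is also made by macrophages and other cells.

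**Figure D1:**
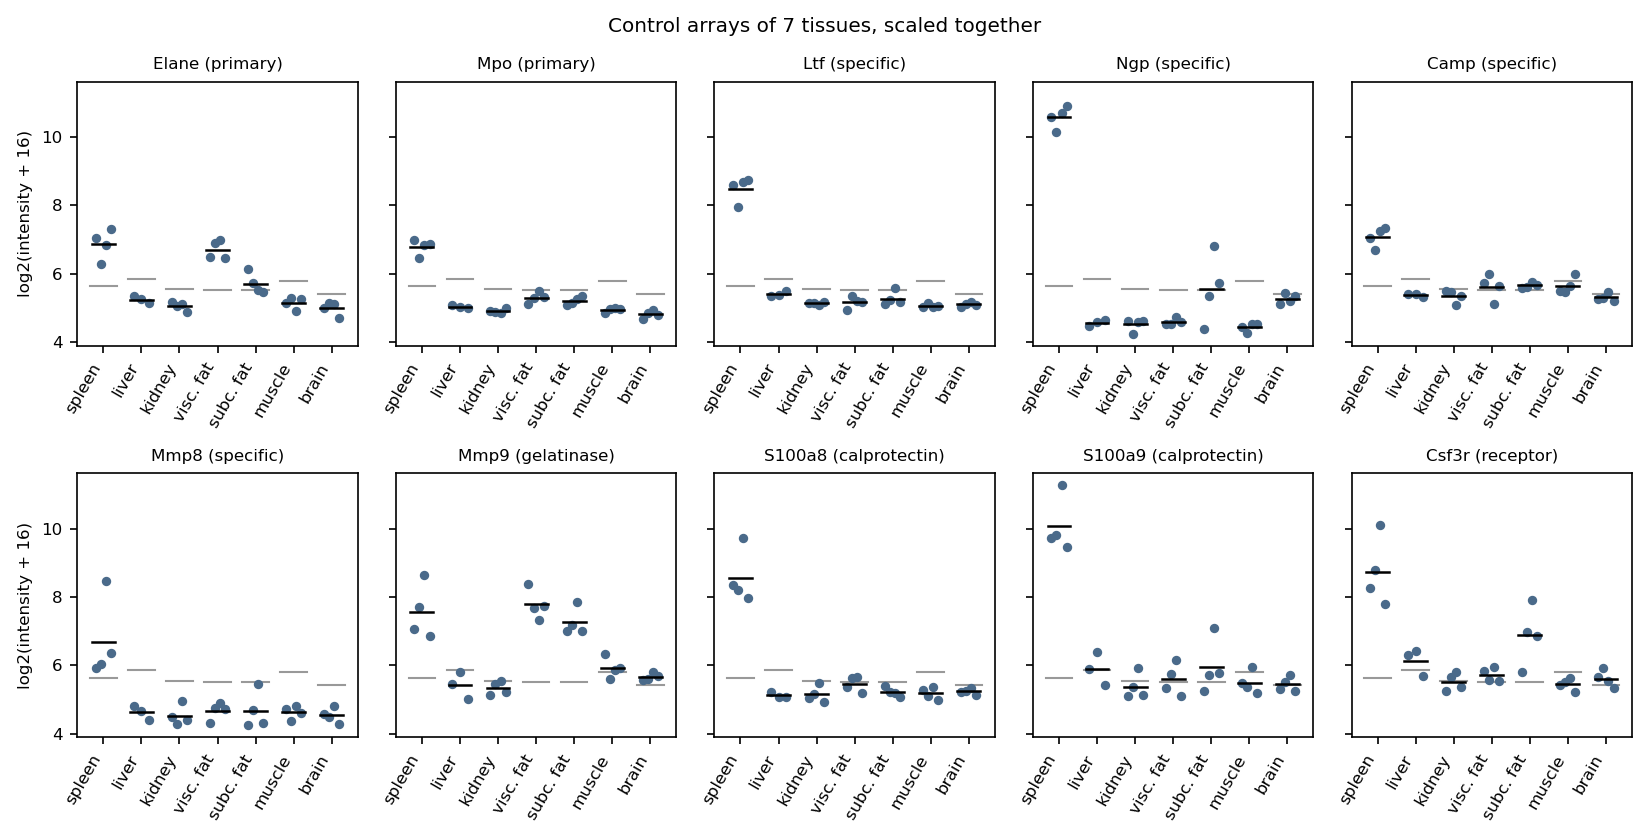
Level of each gene in control arrays, in log2(intensity + 16), for 7 tissues scaled together; points are arrays, black bars are means and grey bars the 95th percentile of Olfr genes in the tissue. Spleen stands alone for most genes, while Elane in visceral fat (6.71) and Mmp9 in both fat depots (7.79 and 7.26) overlap with spleen. For Csf3r, subcutaneous fat replicate 19 (7.92) lies above the lowest spleen array (7.79).

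In the spleen of swim mice all 10 genes were lower in every array than in any control spleen, with differences between -3.05 for Ngp and -1.17 for Mpo. Of the 9 genes that passed the filter on low values, 9 fell at an adjusted p of 0.05 (limma, Benjamini-Hochberg over 11356 genes), where 6.97% of all genes fell. The filter favours genes that are high in 1 group, so the fit without it is given too, in which 10 of 10 fell against 3.20% of 18759 genes. The arrays of the groups did not overlap for 10 of 10 genes, against 8.47% of genes lower in swim without overlap. The median difference was -1.82 over all 10 genes, and 0.0039 over the 11356 genes that passed the filter. In this bulk tissue, fewer neutrophils and less RNA per neutrophil cannot be told apart.

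Both primary granule genes, whose products kill microbes in the phagosome, fell. Elane had 5.77, 5.55, 5.33 and 5.30 in swim spleens, against 7.11, 6.37, 6.91 and 7.36 in control spleens. It fell by 1.45 ± 0.20 (SE, limma adjusted p = 0.0070), and the 4 swim arrays stood within the range of Olfr genes. Mpo, myeloperoxidase, which makes hypochlorous acid, had 5.92, 6.08, 5.35 and 5.43 in swim spleens, against 7.05, 6.54, 6.93 and 6.94 in control spleens, a fall by 1.17 ± 0.18 (limma adjusted p = 0.0087). Swim replicates 31 and 32 were the lowest of the swim arrays for both genes, and for every other member except Csf3r. The swim means of Elane, Mpo and Mmp8 lay at or below the 95th percentile of Olfr genes, 5.80, with little room for a further fall. Those of S100a8 (5.82), Mmp9 (5.85), Camp (5.86) and Ltf (5.88) lay just above it.

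The specific granule genes included Ngp, with the largest fall of the 10. Ngp had 8.12, 7.84, 5.85 and 7.05 in swim spleens, against 10.26, 9.84, 10.37 and 10.58 in control spleens. In the deposited units this was 233, 194, 38.3 and 119 in swim spleens, against 1239, 924, 1521 and 1938 in control spleens. The swim arrays spread wider than the control arrays, and all were below the lowest control array. Ngp fell by 3.05 ± 0.44 (limma adjusted p = 0.0083), the second largest of the 11356 genes tested.

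Ltf had 6.25, 6.20, 5.22 and 5.84 in swim spleens, against 8.49, 7.94, 8.57 and 8.63 in control spleens, and fell by 2.53 ± 0.24 (limma adjusted p = 0.0028). Camp, the antimicrobial peptide cathelicidin, had 5.98, 6.01, 5.61 and 5.83 in swim spleens, against 7.13, 6.78, 7.31 and 7.38 in control spleens. Camp fell by 1.29 ± 0.14 (limma adjusted p = 0.0049), and its swim arrays lay close together. Mmp8, neutrophil collagenase, had 5.22, 4.97, 4.66 and 4.46 in swim spleens, against 6.01, 6.13, 8.40 and 6.44 in control spleens. Mmp8 did not pass the filter, and without the filter its difference was -1.91 ± 0.47 (limma adjusted p = 0.0493). Without control replicate 27 that difference was -1.35, and with swim replicate 31 left out, where it passed the filter, its adjusted p was 0.0789.

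Mmp9, the gelatinase granule gene, had 6.00, 6.09, 5.88 and 5.43 in swim spleens, against 7.13, 7.73, 8.53 and 6.93 in control spleens. It fell by 1.73 ± 0.32 (limma adjusted p = 0.0144). S100a8 and S100a9 are the subunits of calprotectin, which withholds metal ions from microbes. S100a8 had 6.46, 6.15, 5.29 and 5.38 in swim spleens, against 8.29, 8.16, 9.46 and 7.97 in control spleens, and fell by 2.65 ± 0.36 (limma adjusted p = 0.0072). S100a9 had 7.34, 7.47, 6.28 and 6.75 in swim spleens, against 9.46, 9.55, 11.02 and 9.23 in control spleens, and fell by 2.86 ± 0.40 (limma adjusted p = 0.0083). For both, control replicate 27 was the highest.

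Csf3r in spleen had 7.20, 7.14, 7.17 and 6.81 in swim spleens, against 8.23, 8.67, 9.80 and 7.79 in control spleens. It fell by 1.54 ± 0.36 (limma adjusted p = 0.0273), and this was the one member called in spleen whose call depended on the setting. Its adjusted p lay above the threshold, between 0.0534 and 0.0637, with a trended robust fit or without control replicate 25, control replicate 26, swim replicate 31 or swim replicate 32.

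Control replicate 27, singled out after its values were seen, was above the other 3 control arrays for Mmp8, Mmp9, S100a8, S100a9 and Csf3r. It lay among them for Elane, Mpo, Ltf, Ngp and Camp. The 10 mature neutrophil markers on the array averaged 8.27 in that array and between 6.87 and 7.08 in the other 3 control arrays. Without it, S100a9 differed by -2.45, S100a8 by -2.30, Mmp9 by -1.40 and Csf3r by -1.15, with limma adjusted p between 0.0111 and 0.0266.

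**Figure D2:**
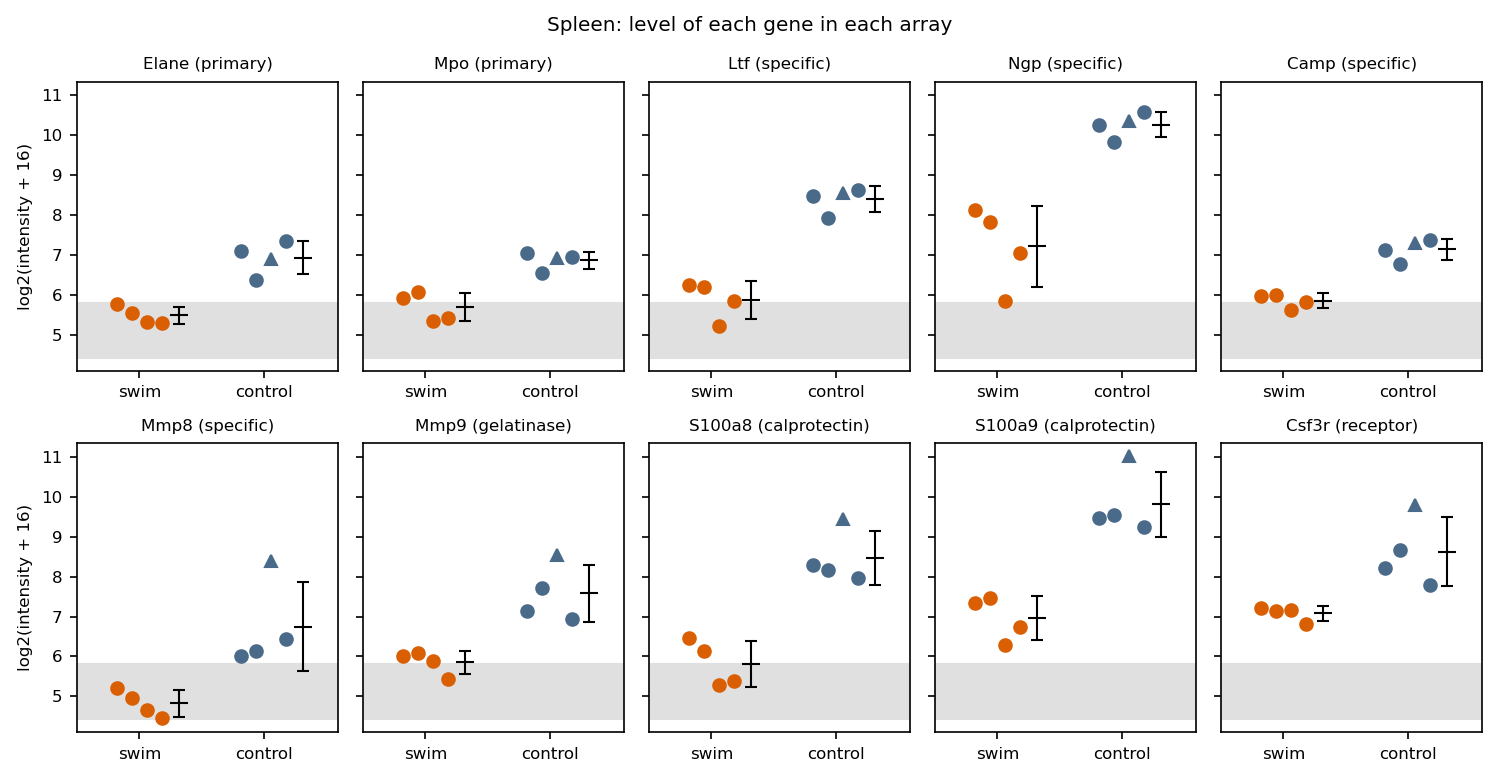
Level of each gene in each spleen array, in log2(intensity + 16), swim left and control right; black bars are mean and SD, the triangle is control replicate 27, and the grey band is the 5th to 95th percentile of Olfr genes. Swim and control arrays do not overlap for any of the 10 genes.

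Whether granule classes fell unequally was tested with 14 pairs of genes of different classes, as the difference between both genes within each array. Ngp minus Mpo averaged 1.52 ± 0.72 in swim arrays and 3.40 ± 0.19 in control arrays (SD, n = 4 each), a change of -1.88, and Ngp minus Elane changed by -1.60. Ltf minus Mpo changed by -1.36 and Ltf minus Elane by -1.08. In these 4 pairs the groups did not overlap, and each had p = 0.0286, the smallest that 70 splits of 4 against 4 arrays allow (exact permutation test, two-sided).

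After Benjamini-Hochberg adjustment over the 14 pairs, 0 passed, and the smallest adjusted p was 0.1 (exact permutation test). With no p under 0.0286 allowed, the 4 pairs without overlap could not have passed over 14 pairs. The 0 therefore does not show that the classes fell alike. In the other 4 pairs of specific and primary genes the groups overlapped, with Camp minus Elane at 0.16 and Camp minus Mpo at -0.12, Mmp8 minus Elane at -0.46 and Mmp8 minus Mpo at -0.75. Mmp9 minus Elane changed by -0.28 and Mmp9 minus Mpo by -0.56, and the 4 pairs of specific minus gelatinase genes by -1.32 to 0.44, all overlapping. The specific class thus held both the largest fall, of Ngp, and 1 of the smaller ones, of Camp. The swim mean of Mmp8, 4.83, lay below the median of Olfr genes, 4.95, so that its pairs set values at background against each other. The swim means of Elane (5.49) and Mpo (5.70) stood within the Olfr range, that of Ltf (5.88) just above it and that of Ngp (7.22) further above. Of their control level above the Olfr median, on the log2 scale, Elane lost 73.0%, Mpo 61.0%, Ltf 73.1%, Ngp 57.4% and Camp 58.7%. The part of the background level in the pair differences was not tested.

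**Figure D3:**
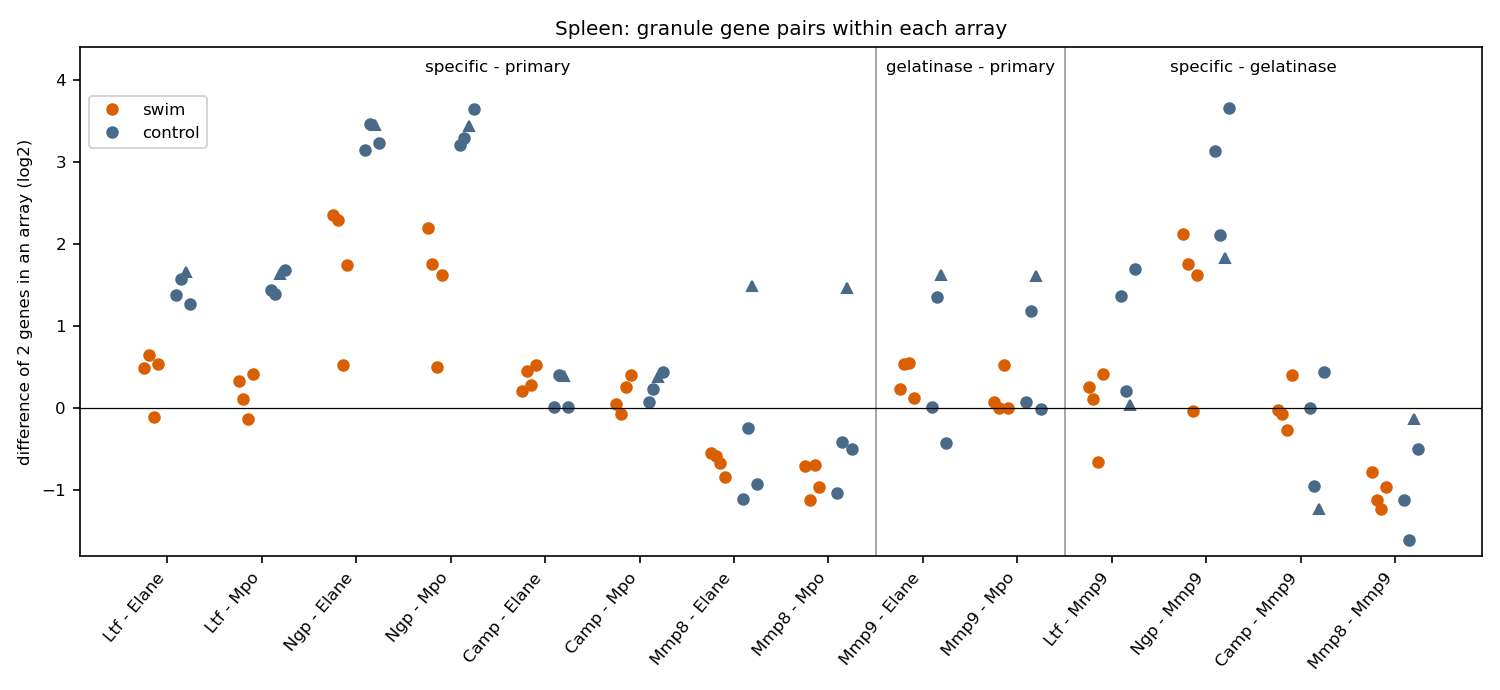
Difference between 2 granule genes within each spleen array (log2), swim left and control right, for 14 pairs; triangles are control replicate 27. The groups separate in the 4 pairs of Ltf or Ngp against Elane or Mpo and overlap in the other 10.

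Promoter sequences of the members that moved together are shown for the largest falls (Ngp, S100a9, S100a8 and Ltf) and for Elane as a primary granule gene. RefSeq promoters (GRCm38.p6, from 250 bases before to 50 after a listed start) matched 9 of 10 members, with Mmp9 not among them. The Csf3r window is set on a start inside the RefSeq gene, downstream of its first base, and the other 8 on the first base. Capitals mark TTGCNNAA, a form of the C/EBP motif, and GAGGAAG, a form of the PU.1 motif, on either strand. They are written in the direction of the gene: Ngp chr9:110419558-110419857 on the plus strand, S100a9 chr3:90695672-90695971 on the minus strand, S100a8 chr3:90668821-90669120 on the plus strand, Ltf chr9:111019042-111019341 on the plus strand and Elane chr10:79886062-79886361 on the plus strand.
Ngp: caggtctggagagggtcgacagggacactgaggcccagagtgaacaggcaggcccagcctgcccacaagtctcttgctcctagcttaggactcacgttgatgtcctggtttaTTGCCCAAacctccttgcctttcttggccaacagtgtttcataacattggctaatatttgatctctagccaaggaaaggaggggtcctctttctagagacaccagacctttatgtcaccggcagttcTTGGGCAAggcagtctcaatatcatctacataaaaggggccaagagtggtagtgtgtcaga
S100a9: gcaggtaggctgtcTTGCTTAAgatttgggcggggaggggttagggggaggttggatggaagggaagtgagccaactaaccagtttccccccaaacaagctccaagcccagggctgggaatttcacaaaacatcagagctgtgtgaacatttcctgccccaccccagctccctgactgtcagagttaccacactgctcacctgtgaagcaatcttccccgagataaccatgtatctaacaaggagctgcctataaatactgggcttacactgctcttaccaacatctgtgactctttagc
S100a8: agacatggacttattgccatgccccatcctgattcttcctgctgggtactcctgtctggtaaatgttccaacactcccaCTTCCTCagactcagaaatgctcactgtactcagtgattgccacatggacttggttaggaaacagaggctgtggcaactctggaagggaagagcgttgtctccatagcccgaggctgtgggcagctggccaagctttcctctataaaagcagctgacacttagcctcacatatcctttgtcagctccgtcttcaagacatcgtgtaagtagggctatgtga
Ltf: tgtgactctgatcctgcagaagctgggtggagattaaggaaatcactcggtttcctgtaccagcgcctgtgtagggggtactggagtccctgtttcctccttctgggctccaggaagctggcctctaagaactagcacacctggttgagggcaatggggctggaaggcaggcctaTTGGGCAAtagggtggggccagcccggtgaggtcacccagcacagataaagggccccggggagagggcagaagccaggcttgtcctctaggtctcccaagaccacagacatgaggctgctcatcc
Elane: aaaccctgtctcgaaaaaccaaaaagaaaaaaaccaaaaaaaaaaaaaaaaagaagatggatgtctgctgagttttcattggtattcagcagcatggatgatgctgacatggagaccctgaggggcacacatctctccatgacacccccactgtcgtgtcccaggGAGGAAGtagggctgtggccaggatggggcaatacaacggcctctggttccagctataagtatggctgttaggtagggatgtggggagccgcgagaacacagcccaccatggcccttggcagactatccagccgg

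Of 7 motifs searched, these 2 were chosen for display after the counts were seen. TTGCNNAA was in 4 of the 9 promoters (Ltf, Ngp, Mmp8 and S100a9), against 10.8% of 32851 promoters, and GAGGAAG in 5 of 9 (Elane, Mpo, Mmp8, S100a8 and Csf3r), against 13.63%. The other 5 were TTNCNNAA, which contains TTGCNNAA, in 5 of 9 against 40.68%, AGGAAGT, which overlaps GAGGAAG, in 4 of 9 against 9.351%, TATAAA in 3 of 9 against 13.62%, and TTGCGCAA and TTGCGAAA in 0 of 9 each, against 0.1826% and 0.1735%. A match describes letters only and shows no binding.

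Lists of other neutrophil genes were counted in the same spleens, where 6.97% of all genes fell and 7.04% rose. Counts of unadjusted p under 0.05 in these and later lists have no share of all genes beside them, since it was not computed. Of 8 other specific granule genes tested, 6 fell, 0 rose and 2 did not pass, with a median of -0.59. Lcn2, the iron-siphoning protein lipocalin-2, had 6.72, 6.64, 4.97 and 5.61 in swim spleens, against 9.11, 8.76, 9.90 and 9.11 in control spleens, and fell by 3.23 ± 0.40 (limma adjusted p = 0.0062). Haptoglobin (Hp) fell by 1.74, Chil3 by 1.32, Cd177 by 0.70, Cyba, a subunit of the oxidase that makes superoxide, by 0.48 and Pglyrp1 by 0.41. Cybb and Lyz2 had differences of 0.02 and -0.11, did not pass and were named after their values were seen.

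Of 6 other primary granule genes, 3 passed the filter, Ctsc, Serpinb1a and Srgn. Of these 3, 0 passed by limma, and 1 had an unadjusted p under 0.05. Prtn3, proteinase 3, Ctsg and Bpi did not pass the filter, and without it Prtn3 differed by -1.66 ± 0.22 (limma adjusted p = 0.0108). The mean of all 6 was 7.73 to 7.91 in swim arrays, against 8.15 to 8.41 in control arrays. Of 4 other genes of gelatinase granules and secretory vesicles, 2 fell, Itgam at -0.68 and Fcgr3 at -0.65. All 4 had an unadjusted p under 0.05 by limma. Of 5 mature neutrophil markers tested, 1 fell, Retnlg, at -2.88 ± 0.54 (limma adjusted p = 0.0148). The median of the 5 was -1.07, and 4 had an unadjusted p under 0.05 by limma. Clec4d differed by -1.16 ± 0.35 (limma adjusted p = 0.0589) and Cxcr2, a chemokine receptor, by -1.07 ± 0.31 (limma adjusted p = 0.0522), without passing. The mean of the 10 markers on the array was 6.32 to 6.53 in swim arrays, against 6.87 to 8.27 in control arrays.

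Of 13 regulators of granulopoiesis on the array, Cebpe and Csf3 did not pass the filter. Of the 11 tested 0 passed by limma, with a median of -0.05 and 1 unadjusted p under 0.05. That 1 was Cebpd, a C/EBP factor, with the largest difference of the list at -0.57 ± 0.23 (limma adjusted p = 0.113). Cebpa differed by -0.12 ± 0.06, Spi1, which encodes PU.1, by -0.11 ± 0.06, Il6ra by 0.09 ± 0.07 and Gfi1, a repressor needed for neutrophil maturation, by -0.07 ± 0.09. Of 7 genes on the precursor and division list 2 fell, Chil1 by 1.03 and Tuba8 by 0.84. Mki67, a division marker (-0.49 ± 0.25), did not pass, nor did Ermap (-0.78 ± 0.34), whose product is named for erythroblasts.

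Markers of other cells moved in the same spleens. Of 4 platelet genes 4 fell, with Gp9 at -1.22 and Pf4 at -1.11, and their mean was 7.28 to 7.61 in swim arrays, against 8.08 to 8.59 in control arrays. Of 10 macrophage genes 6 fell, Adgre1 by 0.61 among them, and of 3 monocyte genes 2 fell, F13a1 by 1.07 and Ccr2 by 0.32. Of 7 T cell genes 3 rose, Cd3d by 0.50, Cd3g by 0.41 and Cd8b1 by 0.40, and of 7 B cell genes 0 passed by limma (4 had an unadjusted p under 0.05), with a list mean of 11.61 to 11.90 in swim arrays and 11.55 to 11.66 in control arrays.

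Of 7 erythroid genes 0 passed by limma and 6 had an unadjusted p under 0.05, with a median of -0.78. Their mean was 9.69, 10.22, 8.502 and 8.74 in the 4 swim arrays, against 10.05, 10.30, 10.06 and 9.89 in control arrays. Swim replicates 31 and 32 were thus the lowest for erythroid genes, as for 9 of the 10 members. The part of these cell types in the falls of the granule genes was not tested.

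Genes of like pattern were taken as those with the highest Pearson r to the mean standardised level of Ltf, Ngp, S100a8, S100a9 and Camp, as a description with no test. Over the 54 arrays, which share tissue differences, these were Gfi1b (0.92), F2rl2 (0.91), Retnlg (0.91), Mfsd2b (0.91), Gata1 (0.91) and Gp9 (0.90). Over the 8 spleen arrays they were Lcn2, Selp, Chil3, Crip2, Mt1 and Pilra, with r between 0.984 and 0.998, where the difference between the groups is shared. Among the members, Elane (0.60) and Mmp9 (0.52) followed that mean less closely over 54 arrays than the others, at 0.87 to 0.98.

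In visceral fat, 2 of the 10 genes passed the filter, Elane and Mmp9, and both fell, where 12.1% of all genes fell. Mmp9 had 5.90, 6.36, 5.54 and 6.43 in swim arrays, against 8.44, 7.71, 7.35 and 7.77 in control arrays, and fell by 1.76 ± 0.25 (limma adjusted p = 0.0018). Elane had 6.13, 5.80, 6.13 and 6.11 in swim arrays, against 6.47, 6.89, 6.98 and 6.45 in control arrays, and fell by 0.66 ± 0.14 (limma adjusted p = 0.0096). The groups did not overlap for either gene, as for 13.9% of all genes lower in swim. On the values as deposited, Elane's difference was -0.53 and no longer passed (limma adjusted p = 0.157). Without the filter, 4 of 10 genes had an unadjusted p under 0.05 by limma. Besides Elane and Mmp9 these were S100a8 at -0.35 (limma adjusted p = 0.0653) and S100a9 at -0.54 (adjusted p = 0.0967). The share of all genes with such an unadjusted p was not computed, so the count of 4 does not set the members apart.

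Elane lies between Prtn3, 3.138 kilobases away, and Cfd, 2.637 kilobases away (GRCm38.p6). The part of Cfd in the Elane values was not tested. Prtn3 had 6.01, 5.76, 5.51 and 6.02 in swim arrays, against 6.97, 6.36, 7.38 and 6.78 in control arrays. It fell by 1.05 ± 0.20 (limma adjusted p = 0.0067). Ngp and Ltf stood at the level of Olfr genes in this depot, where Ngp averaged 4.55 ± 0.21 in swim arrays and 4.56 ± 0.10 in control arrays, and Ltf 5.16 ± 0.11 in swim arrays and 5.12 ± 0.16 in control arrays. Of 9 macrophage genes tested 3 rose and 0 fell in the same arrays, where 11.3% of all genes rose. These were Mpeg1 (1.22), Mertk (0.55) and Adgre1 (0.59), and the part of macrophages in the Mmp9 fall was not tested.

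In subcutaneous fat the arrays themselves differed in what they held. Cd79a stood at 5.19, 8.60, 9.87 and 4.43 in swim arrays, against 4.95, 11.14, 11.26 and 11.13 in control arrays, so that control replicates 18, 19 and 20 carried far more B cell RNA than control replicate 17. Umod, a kidney gene, was at 15.24 in swim replicate 22 and Ckm, a muscle gene, at 11.51 in swim replicate 23. Of the 2 granule genes tested 0 passed by limma, as did 0.00% of all 11548 genes, and both had an unadjusted p under 0.05. Without the filter 3 of 10 had one, with Camp at -0.38 the third (limma adjusted p = 0.239). Here too the share of all genes with such an unadjusted p was not computed.

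Mmp9 had 6.85, 5.68, 6.31 and 6.50 in swim arrays, against 7.05, 7.21, 7.83 and 7.06 in control arrays, a difference of -0.95 ± 0.28 (limma adjusted p = 0.205) without overlap, as for 5.52% of all genes lower in swim. Csf3r had 5.55, 5.76, 6.19 and 5.69 in swim arrays, against 5.94, 7.03, 7.88 and 6.93 in control arrays, a difference of -1.15 ± 0.38 (limma adjusted p = 0.206). The control arrays with B cell RNA were also those high in Csf3r. Ngp, below the filter, was at 4.70, 4.67, 4.90 and 4.70 in swim arrays, against 4.42, 5.45, 6.88 and 5.86 in control arrays, and was lowest in control replicate 17 and highest in control replicate 19, as was Csf3r. Without control replicate 17, Mmp9 (-1.01, limma adjusted p = 0.0388) and Csf3r (-1.46, adjusted p = 0.0150) both passed. The part of lymphocyte-rich tissue in these differences was not tested.

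**Figure D4:**
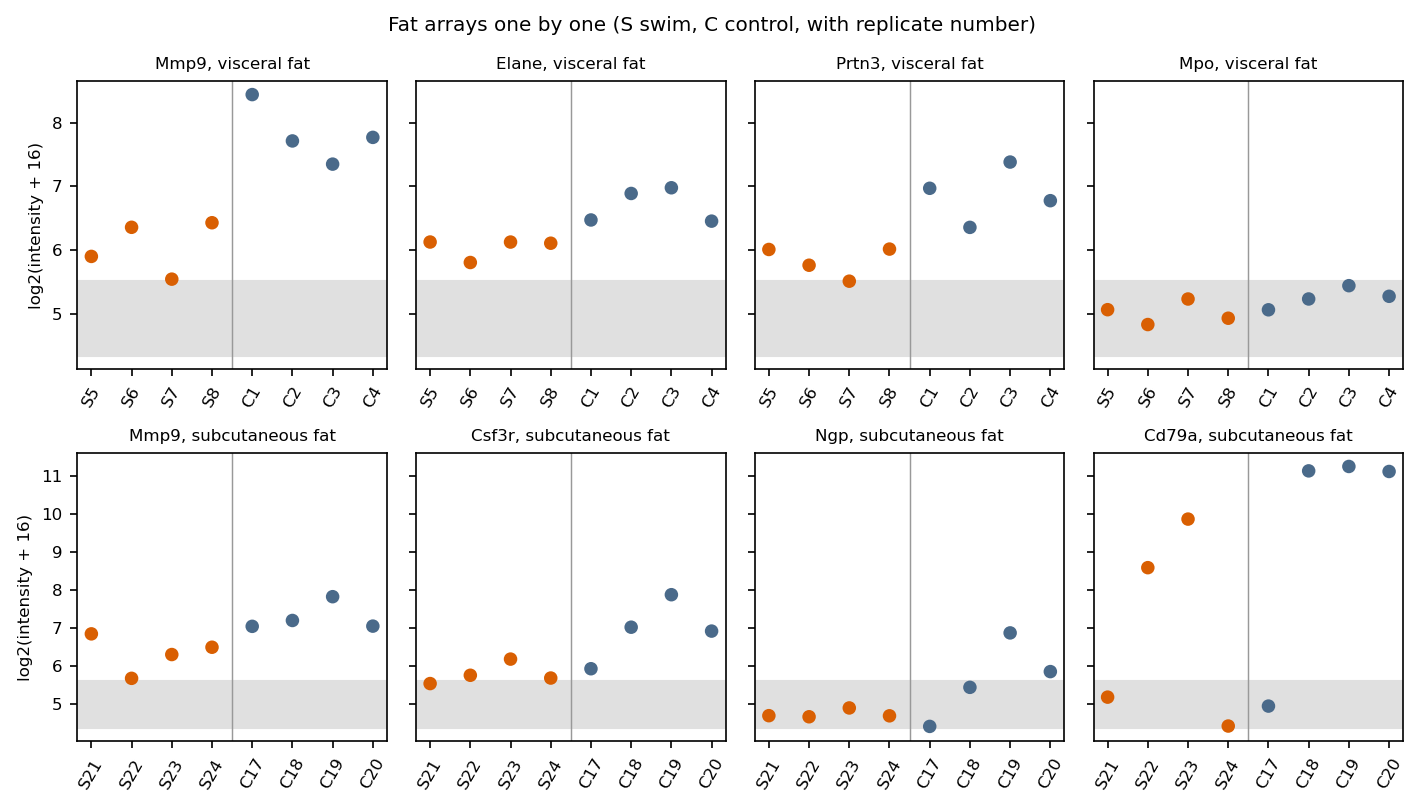
Levels in single fat arrays, in log2(intensity + 16), swim (S) left and control (C) right with replicate numbers; the grey band is the 5th to 95th percentile of Olfr genes. In visceral fat Mmp9, Elane and Prtn3 separate the groups and Mpo stays in the band; in subcutaneous fat Cd79a stands at 11.13 to 11.26 in control replicates 18 to 20 and at 4.95 in control replicate 17.

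In liver only Csf3r passed the filter, and 0 of 1 was called by limma, with 0 at an unadjusted p under 0.05, where 2.16% of all genes fell. Without the filter, 2 of 10 genes had an unadjusted p under 0.05 by limma. These were Mmp9 at -0.53 (limma adjusted p = 0.158) and S100a9 at -0.58 (adjusted p = 0.134). As in fat, the share of all genes with such an unadjusted p was not computed, so this count does not set the members apart. Csf3r had 5.71, 5.42, 5.44 and 5.69 in swim livers, against 6.02, 6.14 and 5.53 in control livers, a difference of -0.33 ± 0.15 (unadjusted p = 0.0589 and adjusted p = 0.251 by limma). Without control replicate 52 it was -0.52 (limma adjusted p = 0.0441). S100a9, below the filter, had 5.11, 5.25, 5.12 and 5.01 in swim livers, against 5.69, 6.11 and 5.31 in control livers, without overlap, as for 7.63% of all genes lower in swim.

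In kidney, muscle and brain 0 of 10 genes passed the filter. Without it, 2 of 10 fell in kidney by limma, where 7.22% of all genes fell. These were Mmp9 at -0.44 ± 0.10 (adjusted p = 0.0169) and Csf3r at -0.44 ± 0.11 (adjusted p = 0.0243), both between 4.73 and 5.80 in every kidney array and so near the level of Olfr genes. In muscle 0 of 10 passed without the filter by limma, with 0 at an unadjusted p under 0.05, where 1.46% of all genes fell and 1.73% rose. In brain 0 of 10 passed by limma, with 3 at an unadjusted p under 0.05, where 0.0213% of all genes fell and 0.192% rose. The 3 in brain were Ltf at 0.21, Mmp9 at -0.39 and S100a8 at -0.24, and the share of all genes with such an unadjusted p was not computed.

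Lcn2 parted from the granule genes in muscle, liver and kidney, where most or all members did not pass the filter. In muscle it rose by 2.41 ± 0.21 (limma adjusted p = 0.0039) while the 10 members differed by -0.27 to 0.07. In liver Lcn2 fell by 2.20 ± 0.24, against -0.58 to 0.01 for the members. In kidney it fell by 1.22 ± 0.17, against -0.44 to 0.11 for the members.

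The difference between the swim effect in spleen and in another tissue was fitted itself, in 9 members. These entered the fits mostly through spleen: 9 of 10 members failed the filter in liver, 8 in each fat depot and 10 in kidney, muscle and brain. A gene near background has little room to fall, so a lower effect in spleen was largely fixed beforehand and the counts are given as a description. The spleen effect was the lower for 7 of 9 against liver, where this held for 4.63% of all genes, for 8 of 9 against kidney (4.50%), 7 of 9 against visceral fat (6.08%), 7 of 9 against muscle (5.29%) and 7 of 9 against brain (0.974%) by limma. Against subcutaneous fat 0 of 9 passed by limma (0.0324% of all genes), and 5 of the 9 had an unadjusted p under 0.05. For that unadjusted count the share of all genes was not computed.

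Elane and Mmp9 passed the filter in both spleen and visceral fat. Their spleen effect minus the visceral fat effect was -0.85 for Elane (limma adjusted p = 0.0551) and -0.12 ± 0.47 for Mmp9 (adjusted p = 0.891), and neither passed.

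**Figure D5:**
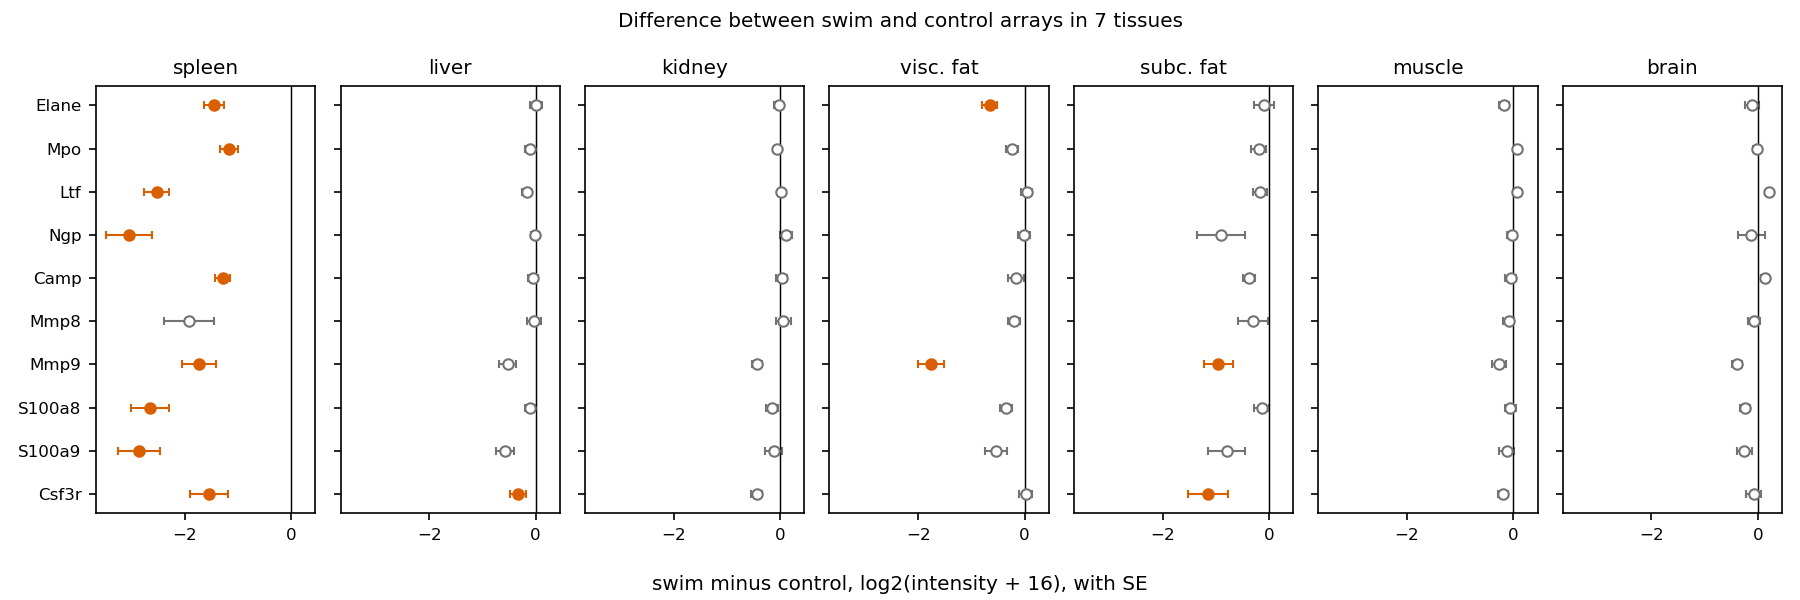
Swim minus control difference of each gene in 7 tissues, log2 with the SE of the limma fit without a filter; filled points passed the filter on low values, open points did not. Spleen holds differences between -3.05 and -1.17, and outside spleen the lowest is that of Mmp9 in visceral fat, -1.76.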

How the data were processed

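Total RNA was hybridised to Affymetrix Mouse Gene arrays. The deposited values were intensity values on a linear scale, 25917 probe sets by 54 arrays. PLIER and limma are named, per the submitters' processing notes. Their versions and settings and the genome build are not given in the sources used here. Of the probe sets, 21086 carried 1 gene symbol, 1867 several and 2964 none. Only those with 1 symbol were kept.

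Values were turned to log2(intensity + 16) and quantile normalized among the arrays of a tissue. A filter dropped the dimmest 40% of probe sets of each tissue by mean level, and a gene took its brightest remaining probe set. Tissues were fitted apart with limma 3.58.1 in R 4.3.3 (statmod 1.5.0), two-sided, with Benjamini-Hochberg adjustment over all genes and a threshold of 0.05. Differences of effects were fitted per pair of tissues with array weights by tissue. Levels at rest were compared over the 27 control arrays. Gene pairs used exact permutation tests (scipy 1.17.1), and plots matplotlib 3.10.9. The fits were tested on simulated data. Arrays give no read depth, so their number limits the precision.

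The members and lists were chosen with earlier results of these data known. All 10 members are named in every tissue, list genes by smallest p in spleen, and genes of like pattern by highest r. Prtn3 and the list genes given for visceral fat were named after their values were seen. Alternatives were other scalings, pseudocounts of 1 and 64, no filter, a trended robust fit, array weights, the mean of probe sets, 1 spread for both tissues and leaving out each array.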

Additional observations from a re-analysis of the deposited data

Results flagged for a closer look

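By limma interaction (adjusted p at 0.05), the swim effect differed between spleen and other tissues for several of the 9 granule genes tested. The spleen effect was the lower in these. Counts were 7 against liver (4.63% of all genes), 8 against kidney (4.50%), 7 against visceral fat (6.08%), 7 against muscle (5.29%) and 7 against brain (0.974%). Against subcutaneous fat the count was 0 (0.0324%). Most members stood near background outside spleen, with little room to fall, so a lower effect in spleen was largely fixed beforehand.

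Some single arrays stood far from the others of their group. Csf3r in swim spleens was lowest in replicate 32, at 6.81 against 7.14 to 7.20 in the others. Elane in swim visceral fat was lowest in replicate 6, at 5.80 against 6.11 to 6.13, and in swim subcutaneous fat lowest in replicate 22, the array with kidney RNA, at 5.37 against 5.81 to 5.87. Ngp in swim subcutaneous fat was highest in replicate 23, at 4.90 against 4.67 to 4.70. Ngp in control kidneys was lowest in replicate 10, at 4.26 against 4.61 to 4.63, Camp in swim livers lowest in replicate 54, at 4.99 against 5.30 to 5.35, and Mpo in control muscle lowest in replicate 41, at 4.83 against 4.95 to 4.97. These are 7 of 120 groups of 4 arrays, and chance gives about 6.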

How the results depend on the processing

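The count of 9 members that fell in spleen was 8 to 9 when each array was left out, 8 with a trended robust fit and 10 without the filter, and every difference kept its sign. The count in liver was 0 to 1 when each array was left out (1 without control replicate 52), in subcutaneous fat 0 to 2 (2 without control replicate 17) and 2 with array weights, in kidney 2 without the filter, and in visceral fat 1 on the values as deposited. Against subcutaneous fat the spleen effect differed for 2 members with 1 spread for both tissues and for 1 on the values as deposited. Without control replicate 27, 3 pairs turned their sign: Mmp8 minus Elane (-0.77 to 0.095 over the arrays left out), Mmp9 minus Elane (-0.64 to 0.046) and Mmp8 minus Mmp9 (-0.44 to 0.050), each at its highest value there. The cause was not tested. Pair tests without an array could not reach the threshold, so only values were computed. On the values as deposited the median of all genes in spleen was -0.27, against which the falls of the members stand. Signal over background limits what a fall can show for Elane, Mpo, Mmp8, S100a8, Mmp9, Camp and Ltf in spleen and for most members elsewhere. No paired analysis was possible because the groups share no replicate numbers.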
